A study of Mus musculus with 16 samples.

Results

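Collagen chain genes were taken from the expression table as the gene names that begin with Col, a number, the letter a and a number, which gave 43 of 22552 genes. They were followed through 16 pluripotent mouse cell lines, with 1 RNA-seq library per line. All lines are of the strain 129-M2rtTA and were made from adipocyte progenitor cells (APCs) of mice that had themselves been grown from induced pluripotent stem cells, all descended from 1 iPSC line, so that the lines share their transgene insertions. AN lines are nuclear transfer embryonic stem cells, derived from cloned blastocysts on a feeder layer of mouse embryonic fibroblasts, and AI lines are induced pluripotent stem cells obtained from the same donor cell type with doxycycline. The study called a line fully reprogrammed (F) or partially reprogrammed (P) by tetraploid complementation, a test of whether the cells alone can form a mouse, and lines were placed in these groups by name since the sample labels give only AN or AI. AN F held 4 lines, which were AN20, AN15, AN9 and AN1. AN P held 5, which were AN7, AN6, AN5, AN3 and AN2. AI F held 4, GS32 and the newly derived AI10, AI7 and AI3, and AI P held 3, GS9, GS4 and the newly derived AI9. Passage was 5 to 7 in the AN lines and in AI3, AI7, AI9 and AI10. GS4, GS9 and GS32 came from earlier work and were at passages 17, 6 and 13. The source entries of GS9 and GS32 name GS4, and their titles were followed here. Each replicate is a separate line, so an SD describes the spread between lines. An SE is the standard error of a difference between groups in the fitted model, which pools variance in part over all genes.

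Collagens are built from 3 chains wound into a triple helix, and each chain has its own gene. Type I, III and V chains form the fibrils of connective tissue, and type IV chains form the network of basement membranes, where type XVIII, a proteoglycan that carries endostatin at its end, is also found. Mouse pluripotent cells are commonly grown on fibroblasts, which secrete large amounts of type I collagen, whereas early embryonic cells are better known for basement membrane components.

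Fibroblast markers, a list given near the end of these results, were abundant as a sum, with 797 to 2992 FPKM over the lines. Pluripotency markers were also abundant in every library, with a summed level of 1465 to 2712 FPKM. Pou5f1, which encodes the core pluripotency factor Oct4, ranged from 615 FPKM in AI10 to 1222 FPKM in GS9, and Lin28a from 226 to 318 FPKM. FPKM is the number of fragments scaled to transcript length and to the fragments of the library, so levels of different genes can be set side by side per length. Read counts were not analysed here, and relative depth, read from the smallest steps in the values, ran from 0.961 to 1.26 times that of AN1. GS9 stood apart in having the largest FPKM sum, 963434 against 661973 to 850666 in the other lines. In bulk RNA, fewer cells of a type and less RNA per cell cannot be told apart.

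**Figure D1:**
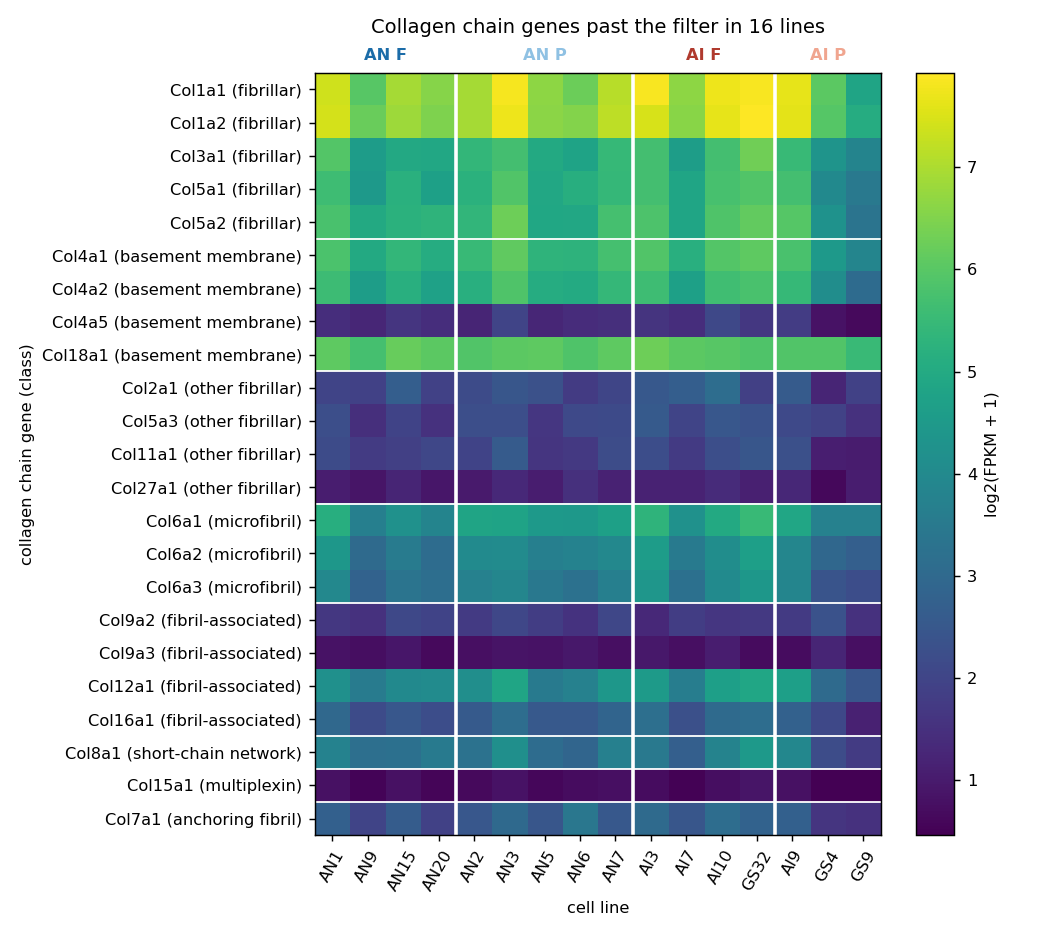
Level of the 23 collagen chain genes past the filter (rows, with their class) in the 16 lines (columns, by group), as log2(FPKM + 1). Col1a1 and Col1a2 are the brightest rows, Col18a1 is even across the lines, and the GS4 and GS9 columns are darker for most chains.

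A few chains made up most of the collagen message. Of the 43 chains, 23 had a mean of at least 0.5 FPKM over the 16 lines and were tested, and 20 did not. The 20 chains under the filter had means of 0.0125 to 0.457 FPKM and no value above 0.800 in any line, and 4 of them were listed at 0 in at least 1 line. The 8 chains with the highest means, Col1a1 (136 FPKM), Col1a2 (133), Col18a1 (62.2), Col4a1 (44.2), Col5a2 (42.9), Col3a1 (38.4), Col5a1 (37.3) and Col4a2 (35.7), held 83.2% of the summed mean FPKM of all 43. The 15 chains with a mean of at least 5 FPKM held 96.7%. All 5 fibrillar chains of the comparison were tested, against 4 of the 7 basement membrane chains (Col4a1, Col4a2, Col4a5 and Col18a1). Col4a3, Col4a4 and Col4a6 were under the filter.

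Stretches around a RefSeq start of 5 chains are shown because the results turn on how these chains varied together or apart. Type IV chains Col4a1 and Col4a2 lie head to head, so that 1 stretch of DNA serves as the start of both. Col1a2 and Col3a1 stand for the fibrillar chains, and Col18a1 for the chain that varied least. Each window holds 250 bases before and 50 after the start that RefSeq (GRCm38.p6) gives, was matched at 1 place in the mm9 genome, and is written 5′ to 3′ on the gene's strand. Capitals mark CCAAT and its reverse complement ATTGG, a box of many promoters. The Col1a2 window is at chr6:4455368-4455667 (plus strand), Col3a1 at chr1:45368133-45368432 (plus strand), Col4a1 at chr8:11312777-11313076 (minus strand), Col4a2 at chr8:11312555-11312854 (plus strand) and Col18a1 at chr10:76629226-76629525 (minus strand).
Col1a2: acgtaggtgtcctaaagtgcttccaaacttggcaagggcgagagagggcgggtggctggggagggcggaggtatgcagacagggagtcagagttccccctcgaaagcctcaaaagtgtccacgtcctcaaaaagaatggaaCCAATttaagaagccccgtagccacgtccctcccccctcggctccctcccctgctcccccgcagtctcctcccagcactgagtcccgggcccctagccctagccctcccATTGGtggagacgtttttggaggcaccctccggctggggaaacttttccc
Col3a1: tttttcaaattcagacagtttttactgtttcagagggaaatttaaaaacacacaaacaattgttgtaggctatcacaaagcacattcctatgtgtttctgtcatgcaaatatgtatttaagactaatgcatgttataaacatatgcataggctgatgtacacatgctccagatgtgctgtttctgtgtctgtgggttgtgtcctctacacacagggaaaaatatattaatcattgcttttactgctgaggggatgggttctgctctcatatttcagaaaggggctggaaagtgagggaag
Col4a1: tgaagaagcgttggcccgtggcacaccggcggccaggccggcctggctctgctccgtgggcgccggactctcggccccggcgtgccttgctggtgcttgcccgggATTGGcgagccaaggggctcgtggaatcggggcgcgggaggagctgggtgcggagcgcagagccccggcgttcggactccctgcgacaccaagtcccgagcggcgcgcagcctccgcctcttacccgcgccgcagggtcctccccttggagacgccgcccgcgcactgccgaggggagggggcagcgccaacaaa
Col4a2: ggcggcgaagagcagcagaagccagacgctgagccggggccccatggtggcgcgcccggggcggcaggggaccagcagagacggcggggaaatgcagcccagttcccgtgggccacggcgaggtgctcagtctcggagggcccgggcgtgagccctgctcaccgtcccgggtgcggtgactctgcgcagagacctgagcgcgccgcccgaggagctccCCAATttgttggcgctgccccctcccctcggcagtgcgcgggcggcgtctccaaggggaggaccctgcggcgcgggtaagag
Col18a1: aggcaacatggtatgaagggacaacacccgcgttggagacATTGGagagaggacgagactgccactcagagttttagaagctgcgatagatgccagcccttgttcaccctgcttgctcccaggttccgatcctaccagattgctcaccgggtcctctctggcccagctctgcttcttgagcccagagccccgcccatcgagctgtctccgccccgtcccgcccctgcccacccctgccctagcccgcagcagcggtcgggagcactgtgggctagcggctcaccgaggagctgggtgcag
The Col4a1 and Col4a2 windows share 78 bases. The Col1a2 window lies inside the span that GENCODE M1 gives the gene, which begins before the window at chr6:4454814. The letters CCAAT, on either strand, were in 4 of these 5 windows and in 37.4% of the 32851 RefSeq windows of the same length. RefSeq gives Col18a1 a further start, whose window (chr10:76576401-76576700, minus strand) is not shown, held no CCAAT and had a GC content of 59.7%. For the windows shown, GC content was 74.0% for Col4a1 and 73.7% for Col4a2, 63.3% for Col18a1, 61.0% for Col1a2 and 37.7% for Col3a1, against a median of 52.7% over all windows. Of the 43 chains, 35 had such a window. Col1a1 and Col5a2 had none.

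Fibrillar chains were the most abundant class and differed up to 8.43-fold between lines. Values are given in FPKM for AN1, AN9, AN15 and AN20 (AN F), then AN2, AN3, AN5, AN6 and AN7 (AN P), then AI3, AI7, AI10 and GS32 (AI F), then AI9, GS4 and GS9 (AI P). Col1a1, the alpha 1 chain of type I collagen (mm9 chr11:94797538-94814356, plus strand), stood at 165, 62.5, 121 and 94.2 FPKM in AN F, 121, 226, 100.3, 74.99 and 137 in AN P, 230.0, 99.7, 213 and 231 in AI F and 202, 65.3 and 27.4 in AI P. It was lowest in GS9 and highest in GS32, and among the AI P lines AI9 was at the level of the AI F lines. Col1a2, its partner in the type I trimer (chr6:4454814-4491543, plus strand), stood at 175, 72.8, 114 and 88.3 FPKM in AN F, 119.6, 212, 98.9, 92.5 and 143 in AN P, 177, 95.1, 201 and 242 in AI F and 195, 61.6 and 32.6 in AI P. The order of lines was nearly that of Col1a1, with Col1a1 the higher of the pair in 10 of 16 lines. Col3a1, the single chain of type III collagen (chr1:45368383-45406551, plus strand), stood at 60.2, 23.1, 30.2 and 29.6 FPKM in AN F, 40.9, 50.8, 30.8, 26.6 and 42.6 in AN P, 51.01, 23.5, 50.8 and 78.7 in AI F and 44.1, 18.9 and 13.1 in AI P. Its highest AN value was that of AN1, where the type I chains peaked in AN3. Col5a1, a type V chain that starts and limits fibrils (chr2:27741945-27895034, plus strand), stood at 47.8, 21.7, 35.8 and 25.1 FPKM in AN F, 36.3, 58.7, 29.7, 33.9 and 41.95 in AN P, 50.6, 27.6, 52.7 and 59.2 in AI F and 50.996, 15.2 and 10.1 in AI P. Col5a2, its partner (chr1:45431166-45560127, minus strand), stood at 54.1, 30.7, 36.3 and 38.7 FPKM in AN F, 40.7, 76.7, 28.95, 29.6 and 51.9 in AN P, 56.8, 28.1, 57.5 and 69.2 in AI F and 60.5, 18.2 and 9.15 in AI P. GS9 was the lowest line in every fibrillar chain and GS4 came next in all but Col1a1, where AN9 did, while AI9 was far above both, so the AI P values fell into a high and a low part and the groups overlapped. Col1a1 overlaps an antisense gene model and Col5a1 overlaps long noncoding RNAs on the other strand. The sources used here do not state strand-specific counting, so reads of such overlaps cannot be assigned.

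Basement membrane chains split into the type IV pair, which varied like the fibrillar chains, and Col18a1, which did not. Col4a1, the alpha 1 chain of the common basement membrane network (chr8:11198423-11312826, minus strand), stood at 54.7, 31.2, 41.4 and 33.1 FPKM in AN F, 43.6, 67.3, 38.8, 37.7 and 51.6 in AN P, 58.3, 34.8, 59.97 and 66.7 in AI F and 53.8, 21.2 and 13.5 in AI P. Col4a2, the other chain of that network (chr8:11312805-11449287, plus strand), stood at 46.4, 23.6, 34.98 and 25.7 FPKM in AN F, 34.9, 57.6, 32.8, 31.6 and 42.4 in AN P, 47.7, 24.9, 49.1 and 53.8 in AI F and 42.8, 16.5 and 7.37 in AI P. Both were lowest in GS9 and highest in AN3, with Col4a1 above Col4a2 in all 16 lines. Col18a1 (chr10:76514923-76629293, minus strand) stood at 66.1, 52.4, 72.4 and 65.2 FPKM in AN F, 59.1, 64.6, 66.99, 57.1 and 66.4 in AN P, 76.4, 65.2, 62.7 and 57.1 in AI F and 58.9, 58.9 and 45.3 in AI P. Its highest value was 1.69 times its lowest, the smallest such ratio of the 23 chains tested, whose median ratio was 5.54. Col18a1 exceeded Col4a1 in 14 of 16 lines but Col1a1 in 1, GS9. Col18a1 overlaps the folate transporter gene Slc19a1 on the opposite strand.

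Minor type IV chains were near the lower limit. Col4a5, a chain of the X-linked pair that serves kidney and other special membranes, stood at 1.73, 1.38, 2.03 and 1.68 FPKM in AN F, 1.37, 2.94, 1.42, 1.68 and 1.78 in AN P, 2.02, 1.71, 3.22 and 2.21 in AI F and 2.44, 0.783 and 0.582 in AI P. It was highest in AI10 and lowest in GS9. Col4a6, its head-to-head neighbour, stood at 0.229, 0.142, 0.299 and 0.0853 FPKM in AN F, 0.183, 0.323, 0.169, 0.225 and 0.126 in AN P, 0.320, 0.297, 0.372 and 0.248 in AI F and 0.292, 0.0655 and 0.0990 in AI P. Col4a3 ranged from 0 FPKM in GS32 to 0.0331 in AI10 and Col4a4 from 0 in GS4 to 0.0323 in AN1, so this pair was close to 0 in every line. Since 3 of the 7 basement membrane chains were close to 0, a mean over the 7 moves less than its expressed members do.

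Among the other classes, type VI chains were the most abundant. Col6a1, a chain of the beaded microfibrils around cells, stood at 34.2, 11.9, 18.01 and 13.2 FPKM in AN F, 27.4, 26.7, 20.96, 20.8 and 25.3 in AN P, 38.9, 17.8, 30.8 and 43.7 in AI F and 28.2, 12.4 and 12.3 in AI P. Col6a2, encoded near it on chromosome 10, stood at 20.1, 7.28, 10.9 and 7.61 FPKM in AN F, 15.5, 15.7, 11.7, 12.8 and 14.3 in AN P, 22.9, 10.5, 16.3 and 24.7 in AI F and 13.9, 6.75 and 5.61 in AI P. Col6a3, the third chain of the trimer, stood at 14.5, 6.00, 9.01 and 7.96 FPKM in AN F, 12.3, 13.9, 9.84, 8.40 and 11.8 in AN P, 19.99, 8.31, 15.4 and 20.4 in AI F and 13.5, 4.27 and 3.65 in AI P. These 3 type VI chains were highest in GS32, Col6a2 and Col6a3 were lowest in GS9, and Col6a1 was lowest in AN9, so here AN9 lay as low as GS4 and GS9. Col12a1, which binds the surface of type I fibrils, stood at 17.6, 10.9, 14.9 and 15.8 FPKM in AN F, 16.7, 27.7, 10.6, 12.4 and 20.4 in AN P, 22.3, 11.3, 24.4 and 28.1 in AI F and 24.6, 7.26 and 4.47 in AI P. Col16a1, another fibril-associated chain, stood at 6.89, 3.51, 4.57 and 3.70 FPKM in AN F, 4.90, 7.67, 4.84, 4.82 and 6.25 in AN P, 8.05, 3.83, 7.26 and 7.67 in AI F and 5.89, 3.26 and 1.23 in AI P. Col12a1 was highest in GS32 and Col16a1 in AI3, both were lowest in GS9, and AI9 lay within the AN range for both. Col8a1, a short chain that forms networks in vessel walls and the eye, stood at 12.6, 8.14, 8.20 and 10.5 FPKM in AN F, 8.70, 16.96, 7.52, 6.46 and 12.1 in AN P, 10.1, 5.59, 12.96 and 20.9 in AI F and 13.96, 3.53 and 2.37 in AI P. Col7a1, the anchoring fibril chain of skin, stood at 5.71, 2.96, 5.16 and 2.72 FPKM in AN F, 4.55, 7.14, 4.53, 9.67 and 4.68 in AN P, 7.19, 4.44, 7.77 and 6.01 in AI F and 5.76, 2.08 and 1.87 in AI P. Col8a1 had the widest range of the 23 chains, 8.85-fold, and Col7a1 was highest in AN6, a line that was low for the type I chains. The 7 remaining chains past the filter (Col2a1, Col5a3, Col11a1, Col27a1, Col9a2, Col9a3 and Col15a1) had means of 0.598 to 3.81 FPKM. Of these, the cartilage chains Col9a2 and Col9a3 were highest in GS4, at 4.04 and 1.35 FPKM, where most chains were near their lowest.

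Ratios of partner chains spanned less than the chains themselves. The ratio of Col1a1 to Col1a2 ran from 0.811 in AN6 to 1.30 in AI3, and that of Col6a1 to Col6a2 from 1.63 to 2.197, although Col1a1 itself spanned 8.43-fold. Col4a1 to Col4a2 ran from 1.17 to 1.39 in 15 lines and was 1.84 in GS9. Wider ranges were found for Col5a1 to Col5a2, from 0.650 in AN20 to 1.15 in AN6, and for Col6a3 to Col6a1, from 0.296 in GS9 to 0.601 in AN20. Over the 16 lines, on the log2(FPKM + 1) scale, Pearson's r was 0.985 for Col1a1 with Col1a2 (Spearman's rho 0.974), 0.992 for Col4a1 with Col4a2 (rho 0.994), 0.984 for Col6a1 with Col6a2 (rho 0.968) and 0.962 for Col5a1 with Col5a2 (rho 0.938). Leaving out the 2 lines farthest from the median gave 0.973, 0.990, 0.981 and 0.904. Col3a1 and Col5a2, which lie tail to tail on chromosome 1 with 24614 bases between them, gave r = 0.934 (rho 0.888). Col9a2 and Col9a3, whose products join in the same trimer but which had low values, gave r = 0.286 (rho 0.0941). Each point is a line, and the chains of a pair share its library and its scaling, so these values describe the 16 libraries.

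Col4a1 and Col4a2 followed the fibrillar mean, the mean log2(FPKM + 1) of Col1a1, Col1a2, Col3a1, Col5a1 and Col5a2. Its r over the 16 lines was 0.988 with Col4a1 (rho 0.985) and 0.974 with Col4a2 (rho 0.988), close to the 0.953 to 0.995 found for each fibrillar chain with the other 4. Col4a5 gave 0.879, and 0.735 without GS4 and GS9. The r of the fibrillar mean was 0.976 with Col12a1, 0.968 with Col16a1 and 0.959 with Col6a3. Col18a1 gave 0.577 (rho 0.341), and 0.201 without GS4 and GS9. The lowest values were -0.116 for Col9a3 (rho 0.00588) and -0.0609 for Col9a2 (rho -0.0235). The fibrillar mean also gave r = -0.904 with the log2 of each line's FPKM sum and 0.221 with relative depth.

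**Figure D2:**
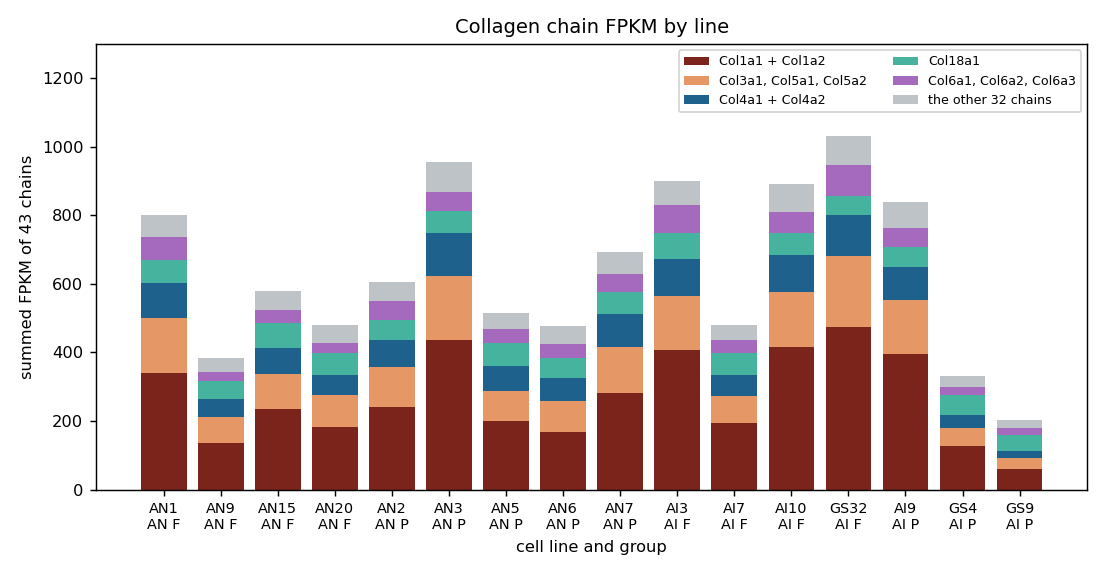
Summed FPKM of the 43 collagen chains in each line, stacked by chain group (bars start at 0). The total ran from 203 FPKM in GS9 to 1032 in GS32, while the Col18a1 part kept nearly the same height.

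Collagen message differed between lines in composition as well as in amount. The 43 chains summed to 203 FPKM in GS9, 332 in GS4 and 384 in AN9, and to 1032 in GS32, 956 in AN3 and 901 in AI3. The 5 fibrillar chains took 45.5% of this sum in GS9 and 54.0% in GS4, and 65.9% in GS32 and 66.0% in AI9. Col18a1 took 22.3% in GS9 and 17.8% in GS4 but 5.53% in GS32.

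No collagen chain separated fully from partially reprogrammed nuclear transfer lines. Col1a1 was at 111 ± 43.4 FPKM (SD, n = 4) in AN F and at 132 ± 57.4 FPKM (SD, n = 5) in AN P, Col4a1 at 40.1 ± 10.7 and 47.8 ± 12.2, and Col18a1 at 64.01 ± 8.39 and 62.8 ± 4.49. On the log2(FPKM + 1) scale the difference of AN F minus AN P was -0.24 (SE 0.34) for Col1a1, -0.25 (SE 0.21) for Col4a1, -0.29 (SE 0.23) for Col4a2, -0.42 (SE 0.26) for Col6a1, -0.46 (SE 0.26) for Col7a1 and 0.02 (SE 0.10) for Col18a1. None of the 23 chains passed limma's test at an adjusted p under 0.05, and the lowest adjusted p was 0.636. None passed at an unadjusted p under 0.05 either, where 3.02% of the 13185 genes tested did so with a positive and 2.99% with a negative difference, while 0% of genes passed after adjustment. In no chain were all AN F lines above or all below the AN P lines, as was the case in 0.584% and 0.713% of all genes. The sign was negative in 22 of 23 chains, that is 4.35% positive beside 46.2% of all genes, and the median was -0.18 beside -0.01 for all genes. The chains share the same 9 lines and are correlated, so their signs are not independent. Leaving out single lines turned the sign of 7 of 16 chains, Col1a1 and Col3a1 among them without AN9 and Col5a2 without AN3.

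Most chains had higher means in fully than in partially reprogrammed induced lines, without passing the test. Col1a1 was at 194 ± 63.1 FPKM (SD, n = 4) in AI F and at 98.2 ± 91.7 FPKM (SD, n = 3) in AI P, Col4a1 at 54.9 ± 13.9 and 29.5 ± 21.4, Col6a1 at 32.8 ± 11.3 and 17.6 ± 9.13, and Col18a1 at 65.3 ± 8.12 and 54.4 ± 7.85. The difference of AI F minus AI P on the log2(FPKM + 1) scale was 1.35 (SE 0.64) for Col1a1, 1.19 (SE 0.59) for Col1a2, 1.04 (SE 0.49) for Col3a1, 1.15 (SE 0.53) for Col5a1 and 1.16 (SE 0.60) for Col5a2. It was 1.06 (SE 0.45) for Col4a1, 1.22 (SE 0.54) for Col4a2, 0.61 (SE 0.29) for Col4a5 and 0.26 (SE 0.14) for Col18a1. Type VI chains gave 0.89 to 1.19, and Col9a2 and Col9a3 gave -0.24 (SE 0.22) and -0.04 (SE 0.16). No chain passed limma's test at an adjusted p under 0.05 (0% of all genes did), and the lowest adjusted p was 0.521. At an unadjusted p under 0.05, 5 of 23 chains (21.7%) were positive, Col4a1, Col5a3, Col6a2, Col6a3 and Col7a1, and 0 were negative, against 3.47% and 4.30% of all genes. The difference was positive in 21 of 23 chains (91.3%), against 43.7% of all genes, and the median was 0.89 beside -0.04. In no chain were all AI F lines above or all below the AI P lines, against 1.69% and 3.19% of all genes. Single lines moved these values by over 1.5 times, as Col1a1 gave 0.67 without GS9 and 2.09 without AI9, and the mean over the fibrillar chains 0.647 and 1.84. Fibroblast markers, a list of genes described at the end, were positive in 23 of 23 tested, with a median of 0.79 and a summed level of 1767 to 2992 FPKM in AI F and 797 to 2640 in AI P, and their part was not tested.

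Within the lines derived for the study and within the earlier lines, the values went apart. In the newly derived lines AI9 was between AI3, AI7 and AI10 in 16 of 23 chains, above all 3 of them in 5 and below them in 2. The difference of these 3 AI F lines minus AI9 was positive in 8 of 23 chains and in 48.3% of all genes, with a median of -0.12 beside -0.0042 for all genes. Between the earlier lines, GS32 was above both GS4 and GS9 in 19 of 23 chains, and the difference of GS32 minus their mean was positive in 21 and in 41.4% of all genes, with a median of 1.75 beside -0.08. For Col1a1 the difference was -0.25 in the new lines and 2.42 in the earlier ones, for Col4a1 -0.12 and 1.91, and for Col18a1 0.20 and 0.14. For the fibrillar mean it was -0.29 and 2.32. Neither part allows a test, as AI9 is 1 line and GS32 is 1 line. With origin (new or earlier) as a term in the fit, 21 of 23 differences were positive with a median of 0.78. In that fit 0 chains were under an unadjusted p of 0.05, and the lowest adjusted p in limma was 0.917. This fit assumes the same difference in new and earlier lines, whose values went apart, so its median describes neither part. Without GS9 and GS32, whose source entries conflict with their titles, the median was 0.43 and the lowest adjusted p 0.920.

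**Figure D3:**
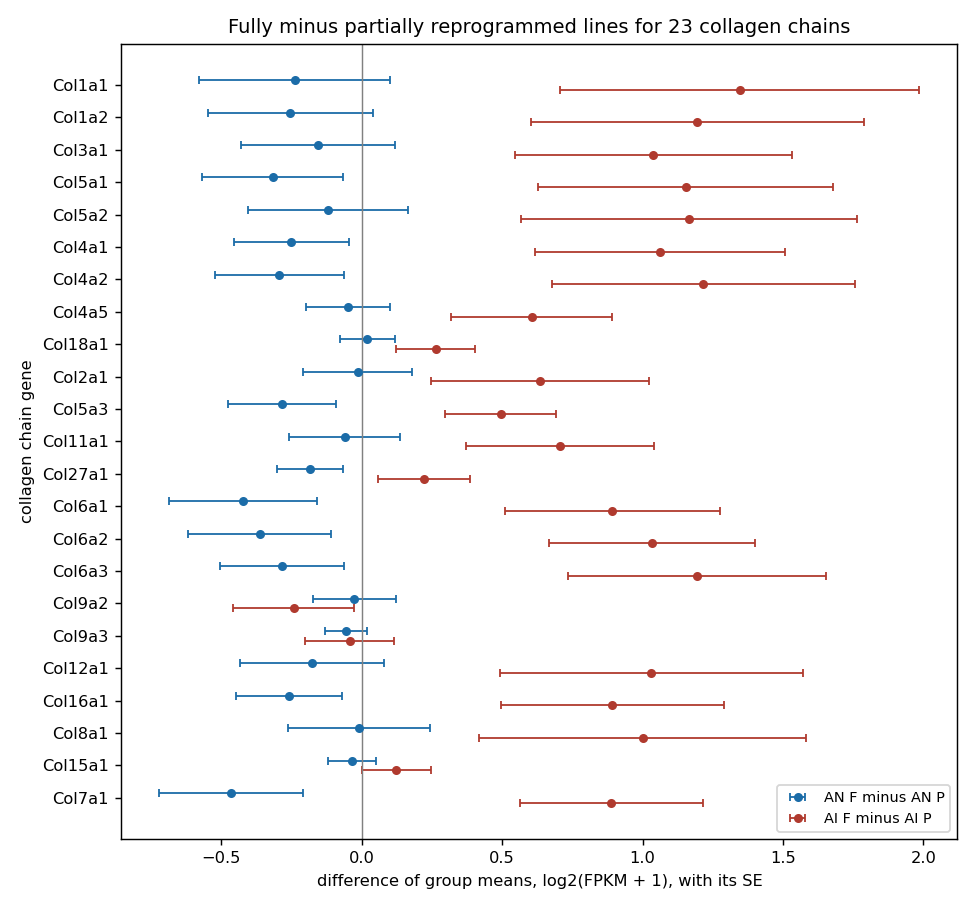
Difference of group means in log2(FPKM + 1), with its SE, for the 23 chains tested. Blue points are AN F minus AN P (9 lines) and red points are AI F minus AI P (7 lines); the blue points lie between -0.46 and 0.02, and the red ones between -0.24 and 1.35.

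The difference between these contrasts, AI F minus AI P less AN F minus AN P, was tested in 1 fit of all 16 lines. It was 1.58 (SE 0.72) for Col1a1, 1.45 (SE 0.65) for Col1a2, 1.31 (SE 0.48) for Col4a1, 1.51 (SE 0.57) for Col4a2, 1.40 (SE 0.45) for Col6a2, 1.35 (SE 0.42) for Col7a1 and 0.24 (SE 0.17) for Col18a1. No chain and no other gene (0%) passed at an adjusted p under 0.05, and the lowest adjusted p of a chain was 0.290. At an unadjusted p under 0.05, 11 of 23 chains (47.8%) were positive and 0 negative, against 8.30% and 8.34% of all genes, and the median was 1.19 beside -0.04. The 11 were Col1a1, Col1a2, Col5a1, Col4a1, Col4a2, Col5a3, Col6a1, Col6a2, Col6a3, Col16a1 and Col7a1. AI9 decided the call. Without it 14 of 23 chains, and 4.94% of all genes, passed at an adjusted p under 0.05, and the lowest of a chain was 0.0309. In that fit 19 of 23 chains and 29.7% of all genes were under an unadjusted p of 0.05. AI P then holds only the earlier lines GS4 and GS9, while most AI F lines are new. Reprogramming state and origin are therefore mixed in these calls. Without GS9 the count under an unadjusted p of 0.05 was 4 of 23 chains, against 9.08% of all genes, with a median of 0.72 and a lowest adjusted p of 0.496. Without GS4 it was 8 of 23, against 11.5% of all genes, with a median of 1.08 and a lowest adjusted p of 0.418.

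**Figure D4:**
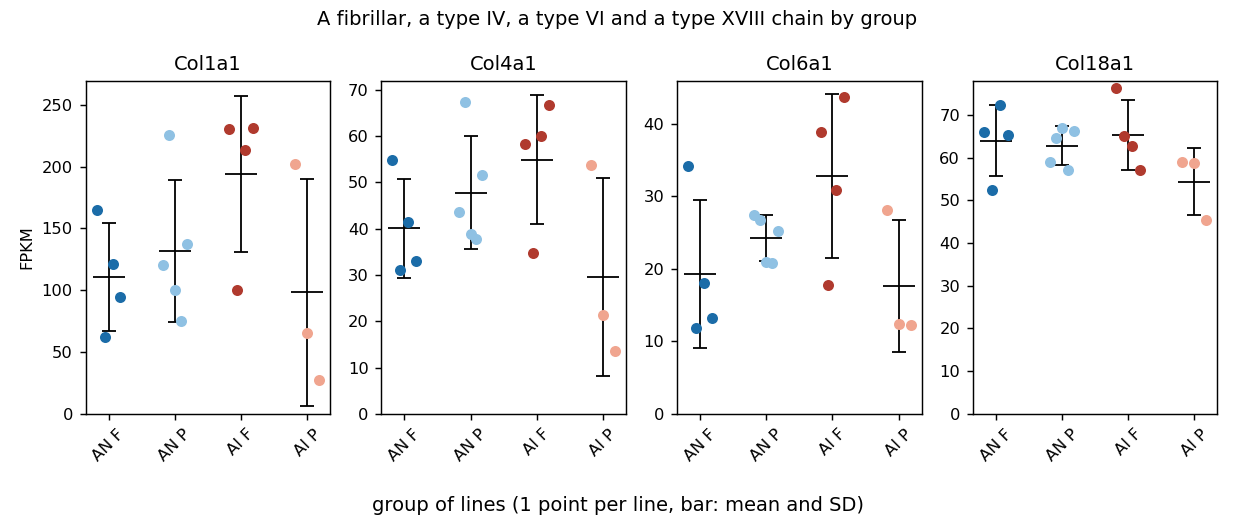
FPKM of Col1a1, Col4a1, Col6a1 and Col18a1 in each line (points), by group, with the group mean and SD (bars; each vertical axis starts at 0). In AI P, AI9 sits with the AI F lines for Col1a1, Col4a1 and Col6a1, and GS4 and GS9 lie below. The groups overlap for each of these chains and for Col18a1.

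No collagen chain separated induced from nuclear transfer lines. The difference of AI minus AN, with F and P weighted equally, was 0.02 (SE 0.36) for Col1a1, -0.06 (SE 0.33) for Col1a2, -0.22 (SE 0.24) for Col4a1, -0.35 (SE 0.28) for Col4a2 and -0.09 (SE 0.09) for Col18a1 on the log2(FPKM + 1) scale. No chain passed at an unadjusted p under 0.05 in limma, against 1.36% (positive) and 2.16% (negative) of all genes, none of which passed after adjustment (0%), and the adjusted p of every chain was 0.999. The difference was positive in 5 of 23 chains (21.7%), against 48.4% of all genes, with a median of -0.09 beside -0.0040 for all genes. Without the 3 earlier lines the median was 0.27 and the difference was positive in 22 of 23 chains. AI9 is then the only AI P line and sets the whole AI P mean.

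Fibrillar chains and basement membrane chains were compared as class means in log2(FPKM + 1), without a test since the chains were chosen with results known. The fibrillar mean was 6.43, 5.26, 5.83 and 5.60 in AN F, 5.97, 6.69, 5.63, 5.53 and 6.18 in AN P, 6.51, 5.51, 6.54 and 6.83 in AI F and 6.48, 4.92 and 4.11 in AI P. The mean of the 7 basement membrane chains was 2.75, 2.40, 2.69 and 2.50 in AN F, 2.58, 2.92, 2.57, 2.56 and 2.70 in AN P, 2.83, 2.53, 2.88 and 2.82 in AI F and 2.76, 2.21 and 1.90 in AI P. Lines had the same order in both at the lower end, with GS9 below GS4 below AN9. The difference of AN F minus AN P was -0.22 for the fibrillar and -0.08 for the basement membrane mean, within the SD between lines of 0.48 and 0.16. The difference of AI F minus AI P was 1.18 and 0.48, with an SD between lines of 0.89 and 0.30. For the 3 basement membrane chains with a mean of at least 5 FPKM it was 0.85, and for Col4a1 and Col4a2 alone 1.14.

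Genes that make, trim, cross-link and bind collagen were taken as 7 lists with 73 genes, of which 65 were tested. In AN F minus AN P, 14 of 65 differences were positive, against 46.2% of all genes, with a median of -0.18 and 0 genes under an unadjusted p of 0.05. In AI F minus AI P, 50 of 65 were positive, against 43.7% of all genes, with a median of 0.43. Under an unadjusted p of 0.05 were 6 of 65, all positive (Crtap, Fkbp10, Bmp1, Loxl3, Nid1 and Ddr2), against 3.47% of all genes. In AI minus AN the median was -0.01 with 2 of 65 such genes, P4ha1 and Mmp13, both positive, against 1.36% of all genes. In the difference of the contrasts it was 0.57 with 28, all of them positive, against 8.30% of all genes. None passed after adjustment.

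Cross-linking enzymes had the highest median of the 7 lists in AI F minus AI P. All 7 had negative differences in AN (median -0.25) and positive ones in AI (median 0.86), with 0.91 (SE 0.61) for Lox, the lysyl oxidase that starts cross-links, 0.86 (SE 0.45) for Loxl2 and 1.07 (SE 0.41) for Loxl3. Lox ran from 12.2 FPKM in GS9 to 106 in AN3. Of the 6 propeptide removal genes tested, 6 were negative in AN and 5 positive in AI, with 0.55 (SE 0.31) for Pcolce, an enhancer of procollagen cleavage, and 0.94 (SE 0.36) for Bmp1, which cuts the C-terminal propeptide. Of the 16 partners in fibrils and basement membranes, 10 were negative in AN and 13 positive in AI, with 0.68 (SE 0.36) for Sparc, 0.86 (SE 0.48) for the small proteoglycan Bgn and 0.82 (SE 0.34) for Nid1, which links laminin to type IV collagen. Of the 8 degradation genes, 7 were negative in AN and 6 positive in AI, with 0.61 (SE 0.34) for Timp1 and 1.08 (SE 0.49) for Timp2, inhibitors of matrix proteases.

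Modification and folding genes are given by their most abundant members and those under an unadjusted p of 0.05 in AI F minus AI P. P4hb, the beta subunit of prolyl hydroxylase and a protein disulfide isomerase in all secretory cells, ran from 213 to 268 FPKM, with a difference of 0.00 (SE 0.08) in AN and -0.07 (SE 0.09) in AI. Ppib gave -0.04 (SE 0.09) and -0.10 (SE 0.11), and Pdia3 0.04 (SE 0.14) and -0.19 (SE 0.19). Serpinh1, the chaperone particular to collagen, gave -0.37 (SE 0.26) in AN and 0.65 (SE 0.36) in AI, and Fkbp10, an isomerase for procollagen, -0.38 (SE 0.21) and 0.86 (SE 0.34). Crtap, a partner of prolyl 3-hydroxylase, gave -0.09 (SE 0.10) and 0.32 (SE 0.13). Of the 14 modification genes tested, 11 were negative in AN and 9 positive in AI, and of the 9 folding and export genes 6 and 6. Among 5 collagen receptors tested, 4 were negative in AN and 4 positive in AI, with 0.46 (SE 0.30) for the integrin chain Itgb1, 0.21 (SE 0.19) for Ddr1 and 1.15 (SE 0.46) for Ddr2.

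Genes outside the family were ranked by their r with the fibrillar mean over the 16 lines. Of 13162 genes, the 10 with the highest r were Fbn1 (0.992), Mical2 (0.984), Tnc (0.984), Tns1 (0.984), Fstl1 (0.984), Fbln2 (0.982), Thbs1 (0.979), Cdh11 (0.978), Loxl1 (0.978) and Fads3 (0.976). Fbn1, which encodes the microfibril protein fibrillin 1, ran from 5.38 to 44.6 FPKM, and Tnc, which encodes tenascin C, from 32.9 to 208. For Col4a1 the 5 highest were Fbln2 (0.993), Loxl1 (0.984), Tnc (0.983), Galntl4 (0.982) and Mical2 (0.982). An r above 0.9 with the fibrillar mean was found for 265 genes (2.01%), and for 246 genes with Col4a1. All points share the library and its scaling.

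**Figure D5:**
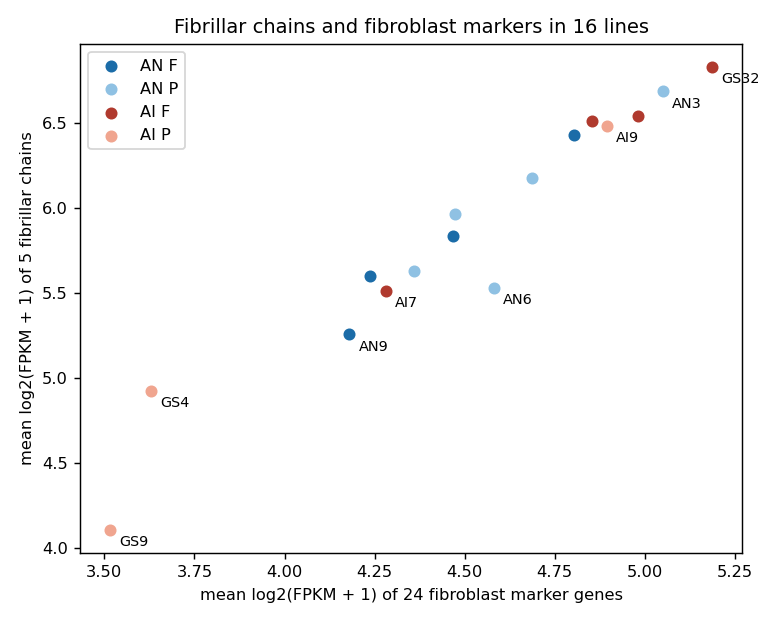
Mean log2(FPKM + 1) of the 5 fibrillar chains against that of 24 fibroblast marker genes, 1 point per line, coloured by group. GS9 and GS4 lie lowest on both axes and GS32 highest, and the lines of all groups lie along the same band.

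Fibroblast markers varied with the chains. The 24 genes were Thy1, Pdgfrb, Vim, S100a4, Twist1, Twist2, Prrx1, Cdh11, Fap, Fbn1, Fbln2, Fbln5, Tagln, Acta2, Cnn1, Thbs1, Thbs2, Ctgf, Cyr61, Mfap5, Ccdc80, Cd44, Snai2 and Tcf21. The list held no collagen, and none of its genes was at 0 in all lines (Tcf21, the lowest, was listed at 0 in 3 lines). Levels were uneven, with means of 483 FPKM for Tagln, 431 for Vim and 377 for Acta2, but 0.815 for Fap and 0.0656 for Tcf21. Of the 23 tested, 22 were negative in AN F minus AN P (median -0.21), 23 positive in AI F minus AI P (median 0.79) and 23 positive in the difference of the contrasts (median 1.06). Their summed FPKM was 1385 to 2206 in AN F, 1626 to 2915 in AN P, 1767 to 2992 in AI F and 797 to 2640 in AI P, with GS4 (797) and GS9 (980) lowest and AI9 highest in AI P. Their mean was 0.19 lower in the 3 new AI F lines than in AI9 and 1.61 higher in GS32 than in GS4 and GS9, on the log2 scale. Over the 16 lines their mean log2(FPKM + 1) gave r = 0.968 with the fibrillar mean (rho 0.962, and 0.956 without GS4 and GS9) and 0.468 with Col18a1 (rho 0.206). Fbn1, Fbln2, Thbs1 and Cdh11 are on this list and also among the 10 genes most like the fibrillar mean. Not every matrix gene varied like these markers. Dcn and Lum, from the list of fibril and basement membrane partners, gave 0.05 (SE 0.43) and 0.07 (SE 0.37) in AI F minus AI P. Dcn was highest in GS4, at 11.6 FPKM, and lowest in AI7, at 3.44. The part of the fibroblast markers in the collagen differences was not tested. The sources used here do not say whether feeder cells were removed before RNA extraction.

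The other marker lists had lower r with the fibrillar mean. Adipocyte progenitor markers, the donor cell type, gave r = 0.569 (rho 0.579) with the fibrillar mean, with a summed level of 21.2 to 41.7 FPKM over the lines, and 5 of 7 tested were positive in AI F minus AI P. The most abundant, Ly6a and Zfp423, gave 0.63 (SE 0.31) and -0.10 (SE 0.20), and Dlk1, the only one under an unadjusted p of 0.05, gave 0.58 (SE 0.21). Extraembryonic endoderm markers gave 0.472 (rho 0.509) with a summed level of 10.5 to 29.2 FPKM, with 0.99 (SE 0.39) for Thbd and 0.54 (SE 0.23) for Dab2 in AI. Endothelial markers gave 0.119 (rho 0.194) with a summed level of 11.9 to 19.96 FPKM, with -0.50 (SE 0.30) for Pecam1 and 0.50 (SE 0.39) for Flt1 in AI. Pluripotency markers gave -0.422 (rho -0.621), with a summed level of 1465 FPKM in AN6 to 2712 in GS4, and in AI F minus AI P 9 of 12 were negative, with -0.45 (SE 0.21) for Pou5f1, 0.20 (SE 0.13) for Lin28a and -0.81 (SE 0.29) for Klf2, the only one under an unadjusted p of 0.05. No marker of these lists passed limma's test after adjustment, and their part in the collagen differences was not tested.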

How the data were processed

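RNA of 16 lines was sequenced as single reads, and the deposited values are FPKM per gene and line, calculated by the authors. The submitters' processing notes name TopHat2 2.1.0, Cufflinks 2.2.1 and HTSeq and the mm9 build. The authors' own differential test was not rerun, and read counts were not analysed here. FPKM values were analysed as log2(FPKM + 1), which understates differences of low genes. Genes with a mean of at least 0.5 FPKM over the 16 lines (13185) were fitted in limma 3.58.1 under R 4.3.3, letting the prior variance follow the mean level, and Benjamini-Hochberg adjustment covered all of them. AN F was fitted against AN P and AI F against AI P in their own lines, and AI against AN and the difference of the contrasts in all 16. The fit was tested on simulated data. Values per line were given for both compared classes and for other chains with a mean of at least 5 FPKM, beside the 2 most abundant genes of each list and the 10 (fibrillar mean) or 5 (Col4a1) genes most similar by r. Other named genes and chains were chosen after their values were seen. Members and lists were chosen with earlier results of these data known. Alternatives were a pseudocount of 0.1, a minimum of 5 FPKM or none, another scaling, and leaving out lines. Gene positions are from GENCODE M1 (mm9), and start windows from RefSeq (GRCm38.p6) were matched to mm9.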

Additional observations from a re-analysis of the deposited data

Results flagged for a closer look

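In AI F, AI7 was flagged for 3 chains, but it was also the lowest AI F line for Col1a2, Col3a1, Col5a1, Col5a2, Col4a1 and Col6a1. Col1a2, for example, was 95.1 FPKM in AI7 and 177 to 242 FPKM in the other AI F lines. Col1a1 was 99.7 FPKM in AI7 against 213 to 231 FPKM in AI3, AI10 and GS32. Col4a2 was 24.9 FPKM against 47.7 to 53.8 FPKM, and Col16a1 was 3.83 FPKM against 7.26 to 8.05 FPKM. In each, the gap between AI7 and its nearest neighbour took up more of the group's range on the log2 scale than Dixon's critical value for 4 samples allows. Of 69 groups examined (23 chains or means in the 3 groups of at least 4 lines), 3 were picked out, where chance alone gives about 1 in 20, or 3.45. The chains are correlated and all 3 flags fall on the library of AI7, so they are not independent.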

How the results depend on the processing

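Named chains kept their direction in 242 of 255 alternative values for AN F against AN P, in all 255 for AI F against AI P, in 327 of 383 for AI against AN and in all 351 for the difference of the contrasts, whose alternatives were chosen after seeing the data. Leaving out single lines gave log2 differences of AN F minus AN P of -0.33 to 0.0014 for Col12a1, -0.0415 to 0.11 for Col18a1, -0.46 to 0.0049 for Col1a1, -0.43 to 0.016 for Col3a1, -0.11 to 0.076 for Col4a5, -0.27 to 0.088 for Col5a2 and -0.14 to 0.18 for Col8a1. For AI minus AN, all 16 named chains turned in at least 1 alternative. Leaving out single lines gave, for example, -0.35 to 0.36 for Col1a1 and -0.41 to 0.23 for Col1a2. Without the 3 earlier lines, with AI9 the only AI P line, AI minus AN was 0.0018 for Col18a1, 0.55 for Col1a2, 0.27 for Col4a1 and 0.21 for Col4a2. With AI and AN as 2 groups it was 0.012 for Col1a2. The cause of these turns was not tested. The number of all genes called was 0 to 1 with single lines left out for AN F against AN P, 0 to 5 for AI F against AI P (5 without GS9), 0 to 1 for AI against AN and 0 to 651 for the difference of the contrasts (651 without AI9), and that of chains 0 to 14 for the last. It was 6 for AI F against AI P without GS9 and GS32 and 9 for AI against AN without the earlier lines. At an unadjusted p under 0.05 it was 792, 1025, 464 and 2194 in these comparisons, with 5 chains in AI F against AI P and 11 in the difference. With a minimum of 5 FPKM the basement membrane mean difference was 0.847 in AI and 1.02 in the difference of the contrasts, where the fibrillar excess over it was 0.375, because chains near 0 drop out. Single lines left out moved the basement membrane value of the difference from 0.366 to 0.798. No paired analysis was possible because the replicate numbers only name lines. Read depth behind each value is not known beyond relative depth.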

Other observations

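Genes most like Col18a1 over the 16 lines were looked at after its flat profile was seen. No gene outside the family had an r above 0.9 with it, and the highest were Gcn1l1 (0.897), Ccdc85c (0.894) and Pcnxl3 (0.892), which are not matrix genes. The minor type IV chains Col4a5 and Col4a6, neighbours on the X chromosome, gave r = 0.817 (rho 0.806) with each other, at levels of 0.582 to 3.22 FPKM and 0.0655 to 0.372 FPKM. All points share the library and its scaling.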
